A study of Mus musculus with 2 samples.

Results

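The 10 genes described here encode the proteins by which fat tissue takes fatty acids from circulating lipoproteins and carries them inside the cell. They are Lpl and Angptl4 for lipolysis of lipoproteins, Cd36 for uptake at the plasma membrane, the transport proteins Slc27a1, Slc27a2, Slc27a3 and Slc27a4, and the intracellular binding proteins Fabp3, Fabp4 and Fabp5. They were chosen by name as a list, and these genes and all other lists below were chosen with earlier results of these data known. All 10 were found among the 19938 genes that had at least 1 probe set annotated with a single symbol. White adipose tissue of mice was profiled on Affymetrix Mouse Gene 1.0 ST arrays. The study had 1 array for Oma1_KO, labelled as an Oma1-deficient mouse, and 1 array for Oma1_WT, labelled as a control mouse. Per the labels, both groups were sampled at an age of 24 weeks, 20 of them on a high-fat diet. The labels used here give no strain, sex or fat depot, no allele of Oma1, and no statement on whether RNA of several mice was pooled. Oma1 is a protease in the inner membrane of mitochondria.

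Triglyceride reaches fat in chylomicrons and very-low-density lipoproteins. Lipoprotein lipase, made by adipocytes and carried to the capillary wall by Gpihbp1, releases fatty acids from these particles, and Angptl4 inhibits the enzyme. Cd36 and the Slc27a family bring fatty acids into the cell, where Slc27a proteins and acyl-CoA synthetases couple them to coenzyme A and the Fabp proteins bind them. Several of these genes are targets of the nuclear receptor Pparg in adipocytes.

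With 1 array per genotype no test of a difference was possible, the spread between animals is unknown, and precision is limited throughout by how few arrays there were. Each value is the deposited intensity of a probe set on a linear scale, and each difference is log2(intensity + 1) in Oma1_KO minus that in Oma1_WT. Both arrays had a median intensity of 83 over 35512 probe sets. Genes with a mean log2 value no lower than that of this median are called above the filter here, which held for 11394 genes. Differences of at least 1.5-fold were counted in place of a test. Among genes above the filter, 143 (1.26%) reached this size upwards in Oma1_KO and 199 (1.75%) downwards, a split that became 170 and 148 after quantile normalisation. The median difference of these genes was -0.06. It was -0.01 after quantile normalisation and also after loess, so the tilt of genes above the filter towards lower values depends on the scaling. The SD of the difference between probe sets of one gene was 0.17, estimated from 545 genes with exactly 2 probe sets, and covers technical disagreement on the same RNA only. Oma1 itself had an intensity of 155 in Oma1_KO and 187 in Oma1_WT, a difference of -0.27. Since the disrupted part of the gene is not given, this value does not check the genotype.

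The genes abundant in adipocytes were slightly lower or nearly level in Oma1_KO, Angptl4 was higher, Slc27a1 had the lowest difference of the list, and the dim transcript Slc27a2 was the single one past 1.5-fold. Of the 10 genes, 5 were higher and 5 lower in Oma1_KO by any size, beside 9356 higher and 9543 lower of all 19938 genes. Of the 8 above the filter, 3 were higher and 5 lower, close to the 36.6% higher and 62.3% lower among all genes above the filter. Past 1.5-fold the list held 1 gene that was higher in Oma1_KO, where 1.26% of all genes above the filter were, and 0 that were lower, where 1.75% were. The median difference of the 10 genes was -0.0027, beside 0 for all 19938 genes. Slc27a3 and Fabp3 were below the filter. With the other 8 genes the median was -0.12, beside -0.06 for all genes above the filter.

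**Figure D1:**
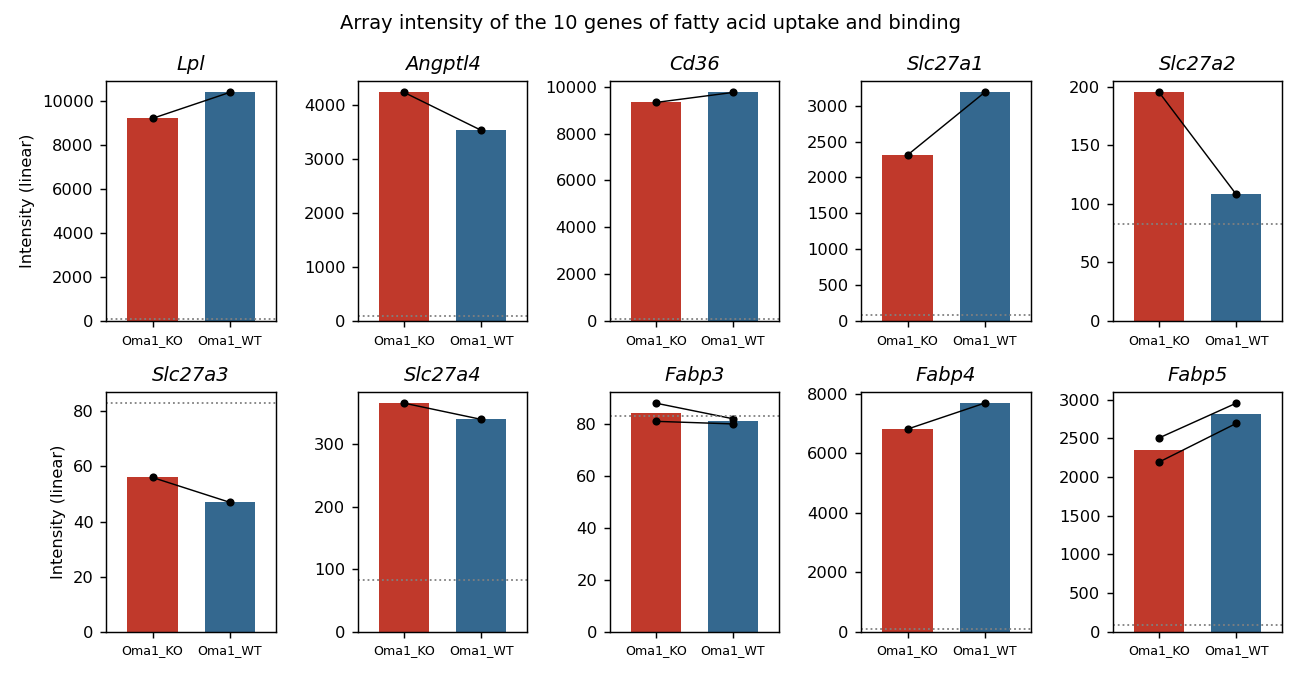
Linear intensity of each gene in the Oma1_KO array (left bar) and the Oma1_WT array (right bar), 1 array each, with black points for single probe sets and a dotted line at the filter intensity of 83; each panel has its own scale, and levels are not comparable between genes. Lpl, Cd36, Slc27a1, Fabp4 and Fabp5 have the lower bar in Oma1_KO, and the other 5 genes have the higher one there.

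Lipoprotein lipolysis was represented by the enzyme and its inhibitor, which lay on opposite sides. Lpl, which encodes lipoprotein lipase, had an intensity of 9210 in Oma1_KO and 10389 in Oma1_WT. The difference was -0.17, about the size of the SD between probe sets. Among genes above the filter 26.7% had a lower difference than Lpl, so its place was well inside the range of the array as a whole. Angptl4, the secreted inhibitor that fasting induces in fat, had an intensity of 4235 in Oma1_KO and 3533 in Oma1_WT. The difference was 0.26, or 19.9% more in Oma1_KO. Only 7.21% of genes above the filter had a higher difference. The Angptl4 difference exceeded that of Lpl by 0.44 on the log2 scale, a contrast within the same pair of arrays.

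Cd36, a membrane receptor that binds long-chain fatty acids in adipocytes, capillary endothelium and macrophages, was nearly level. Its intensity was 9333 in Oma1_KO and 9760 in Oma1_WT. The difference of -0.06 matched the median of all genes above the filter, and it was -0.01 in the setting that brought it nearest to 0. In bulk tissue fewer cells of a type and less RNA per cell cannot be told apart, which holds for every value here.

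The 4 transport proteins of the Slc27a family did not move as a group. They combine transport with acyl-CoA synthetase activity and differ in the tissues that use them. Slc27a1, the form of adipocytes and muscle that insulin brings to the cell surface, had an intensity of 2312 in Oma1_KO and 3184 in Oma1_WT. The difference was -0.46, an Oma1_KO over Oma1_WT ratio of 0.726, which did not reach 1.5-fold. Among genes above the filter, 454 (3.98%) had a lower difference. Slc27a2, known mainly from liver and kidney, had an intensity of 195 in Oma1_KO and 108 in Oma1_WT. The difference was 0.85, a ratio of 1.80, and only 54 genes above the filter (0.474%) had a higher one. Both of its values were above the filter intensity, though low on the scale of the arrays. Slc27a4, the main form of the small intestine, had 366 in Oma1_KO and 340 in Oma1_WT, a difference of 0.11 that is smaller than the SD between probe sets. Slc27a3 was dim on both arrays, at 56 in Oma1_KO and 47 in Oma1_WT, and its difference of 0.25 rests on 9 intensity units. The differences of Slc27a2 and Slc27a1 lay 1.31 apart on the log2 scale, the widest gap within the list.

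**Figure D2:**
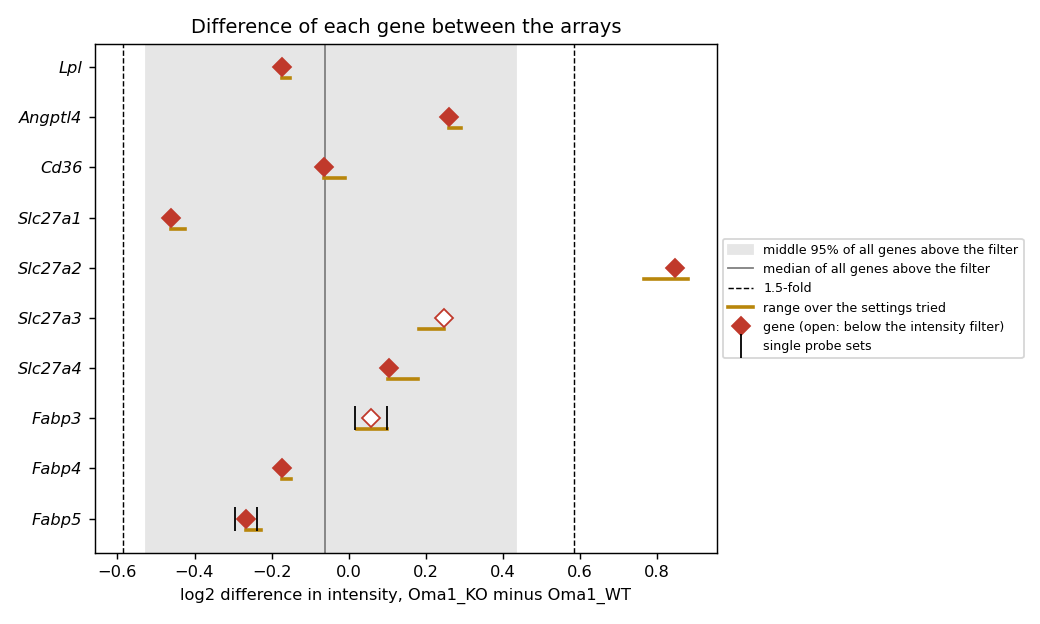
Log2 difference in intensity, Oma1_KO minus Oma1_WT, for each of the 10 genes (diamonds, open where below the filter; black ticks, single probe sets; brown bars, range over the settings tried), beside the middle 95% of all genes above the filter (grey band), their median (grey line) and 1.5-fold (dashed lines). Slc27a2 at 0.85 is the gene beyond 1.5-fold, Slc27a1 at -0.46 lies inside the lower edge of the band at -0.53, and the other 8 lie inside the band, whose upper edge is at 0.43.

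Genes with the nearest pair of values to Slc27a2 were sought over all single-symbol genes, by Euclidean distance in log2(intensity + 1) over the 2 arrays. The 3 nearest were Gm5784 with 191 in Oma1_KO and 109 in Oma1_WT (distance 0.03), Cyp2d26 with 184 in Oma1_KO and 108 in Oma1_WT (0.08), and Ism1 with 189 in Oma1_KO and 102 in Oma1_WT (0.09). Cyp2d26 is a cytochrome P450 of the liver. With 2 arrays such nearness says no more than that the values are close.

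Some other lipid genes known from liver were also higher in Oma1_KO, Fabp1 and Slc27a5 among them. Not all were, and Apoc1 (-0.19) and Angptl8 (-0.16), which liver also makes, were lower. Fabp1, the liver form of fatty acid binding protein, had an intensity of 296 in Oma1_KO and 136 in Oma1_WT, a difference of 1.12. Slc27a5, a transport protein of liver that also activates bile acids, had 89 in Oma1_KO and 58 in Oma1_WT, a difference of 0.61, with its mean below the filter. Among all genes above the filter, 36.6% were higher in Oma1_KO and 1.26% at least 1.5-fold higher. Of 10 liver markers, 10 were higher in Oma1_KO and 7 were at least 1.5-fold higher, with a median difference of 0.98. Their summed intensity was 9241 in Oma1_KO and 3947 in Oma1_WT. The lowest value was 42.4, for Fga in Oma1_WT, which is below the filter intensity of 83. Alb, which encodes albumin, had 4523 in Oma1_KO and 1692 in Oma1_WT (1.42), and Apoa1 had 904 in Oma1_KO and 253 in Oma1_WT (1.83). The part of liver transcripts in the Slc27a2 difference was not tested.

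The sequences before the start sites of Slc27a2 and Fabp1 are shown because these were the fatty acid transport and binding genes above the filter with the highest differences. They come from RefSeq (GRCm38.p6), whose promoter table held 6 of the 10 genes. Each line gives the 250 bases before the start, 5′ to 3′, with matches to 3 motifs in capitals on either strand. The motifs were the direct repeat that PPAR and RXR bind, written as a pair of AGGNCA with 1 base between them, the nuclear receptor hexamer AGGTCA, which can lie inside that repeat, and the TATA box TATAAA.
Slc27a2, chr2:126552774-126553023, plus strand: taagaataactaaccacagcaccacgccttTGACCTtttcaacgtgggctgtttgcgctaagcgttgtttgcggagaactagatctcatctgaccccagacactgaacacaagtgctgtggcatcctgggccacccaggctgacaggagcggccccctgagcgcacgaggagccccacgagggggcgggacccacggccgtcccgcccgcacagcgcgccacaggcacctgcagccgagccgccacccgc
Fabp1, chr6:71199629-71199878, plus strand: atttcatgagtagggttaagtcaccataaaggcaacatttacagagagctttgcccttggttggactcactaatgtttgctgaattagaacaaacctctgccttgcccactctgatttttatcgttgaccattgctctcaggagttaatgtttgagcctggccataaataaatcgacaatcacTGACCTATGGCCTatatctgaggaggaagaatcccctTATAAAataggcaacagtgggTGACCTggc
In Slc27a2 the hexamer stands on the minus strand at positions -220 to -215, counted back from the start, and neither of the other motifs matched. Fabp1 has the direct repeat on the minus strand at -67 to -55, with a hexamer inside it, another hexamer at -9 to -4 and a TATA box at -30 to -25. Of 32851 promoter windows of this length, 0.338% held the direct repeat, 14.0% the hexamer and 12.4% the TATA box. Among the 6 genes of the list with a window, Cd36 also held the hexamer. A match describes the letters and shows no binding.

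The intracellular binding proteins of adipocytes were both lower in Oma1_KO by small amounts. Fabp4, the adipocyte form that macrophages also make, had an intensity of 6813 in Oma1_KO and 7685 in Oma1_WT. The difference was -0.17, as for Lpl. Fabp5, named for epidermis and also made by adipocytes and macrophages, had 2 probe sets, and both were lower in Oma1_KO. The first read 2194 in Oma1_KO and 2693 in Oma1_WT, a difference of -0.30. The second read 2506 in Oma1_KO and 2955 in Oma1_WT, a difference of -0.24. The gene value was -0.27, and 14.2% of genes above the filter were lower still. Fabp3, the form of heart and skeletal muscle, was just below the filter. Its probe sets read 88 and 81 in Oma1_KO, against 82 and 80 in Oma1_WT, and the gene difference was 0.06, under the SD between probe sets. RefSeq lists the pseudogenes Fabp3-ps1 and Fabp5l2, so signal of the probe sets of Fabp3 and Fabp5 may be shared with such copies and its source is uncertain.

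**Figure D3:**
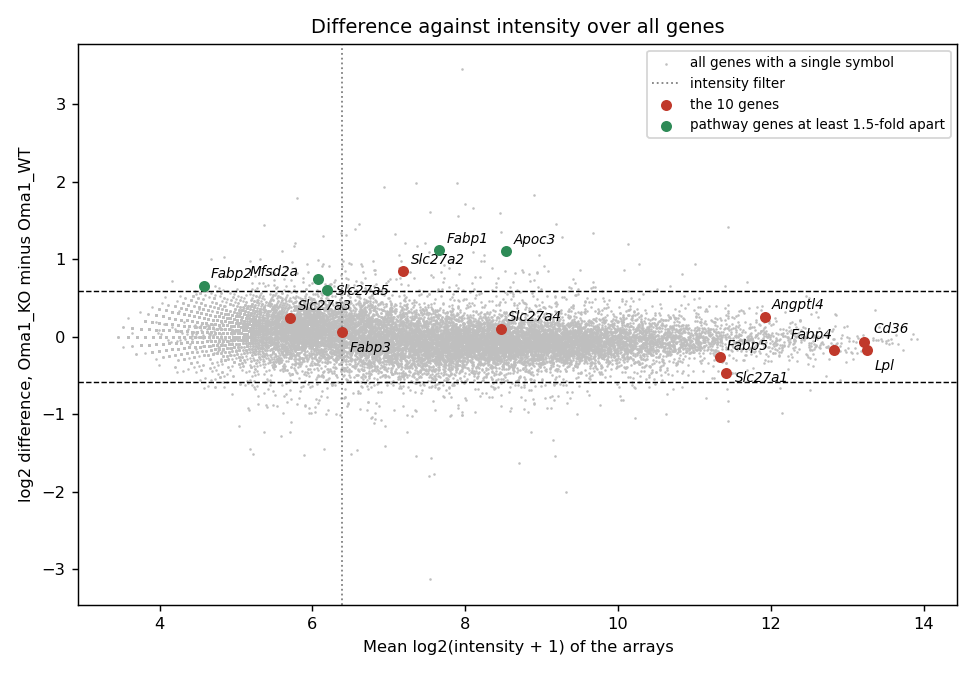
Log2 difference, Oma1_KO minus Oma1_WT, against the mean log2(intensity + 1) of the arrays for all 19938 single-symbol genes (grey), the 10 genes (red) and other genes of the pathway at least 1.5-fold apart (green); dashed lines mark 1.5-fold and the dotted line the filter. Lpl, Cd36 and Fabp4, the genes of the list with the highest intensities, sit closer to 0 than Slc27a1, Angptl4 and Fabp5. Slc27a2 lies above the upper dashed line, as do all the green genes. Of these, Fabp1 and Apoc3 are above the filter, and Mfsd2a, Fabp2 and Slc27a5 are below it.

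Markers of the cells that use these proteins differed between the arrays, and their part in the values above was not tested. Among all genes above the filter, 62.3% were lower and 36.6% higher in Oma1_KO by any size. Of 7 measured adipocyte markers, 6 were lower and 1 higher in Oma1_KO, with a median of -0.11 and a summed intensity of 44588 in Oma1_KO and 50211 in Oma1_WT. Adipoq, which encodes adiponectin, had 5255 in Oma1_KO and 6832 in Oma1_WT (-0.38), and Pnpla2, the adipose triglyceride lipase, had 5540 in Oma1_KO and 6769 in Oma1_WT (-0.29). The lowest marker value was 5189, so the defining transcripts of fat were present on both arrays. The adipocyte markers ran from -0.38 to 0.01. Lpl, Cd36, Fabp4 and Fabp5 at -0.17, -0.06, -0.17 and -0.27 lay within this range. Slc27a1 at -0.46 lay below it and Angptl4 at 0.26 above it. All 10 capillary endothelial markers were lower in Oma1_KO, with a median of -0.36 and a summed intensity of 9562 in Oma1_KO and 12492 in Oma1_WT. Slc27a1 and Fabp5 lay within the range of these capillary markers, from -0.65 to -0.22. Robo4 had 347 in Oma1_KO and 544 in Oma1_WT (-0.65), and Cd300lg 938 in Oma1_KO and 1444 in Oma1_WT (-0.62). Of 10 macrophage markers 9 were higher, with a median of 0.30 and a summed intensity of 28352 in Oma1_KO and 24043 in Oma1_WT. Trem2 had 2241 in Oma1_KO and 1553 in Oma1_WT (0.53), and Fcgr1 503 in Oma1_KO and 308 in Oma1_WT (0.71). Cd36, Lpl, Fabp4 and Fabp5 are expressed in more than 1 of these cell types.

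Markers of brown fat, skeletal muscle and mesothelium were also measured, and their part in the dimmer genes of the list was not tested. Of all 19938 genes, 9356 were higher and 9543 lower in Oma1_KO, and above the filter 36.6% were higher and 62.3% lower. The 7 measured brown and beige fat markers, 4 of them above the filter, had a median of 0.01, with 4 higher, 2 lower and 1 equal. Their summed intensity was 1809 in Oma1_KO and 1521 in Oma1_WT. Cidea had 213 in Oma1_KO and 84 in Oma1_WT (1.33), and Cox8b 1079 in Oma1_KO and 926 in Oma1_WT (0.22). Ucp1, the uncoupling protein that defines brown fat, was below the filter at 55 in Oma1_KO and 38 in Oma1_WT. Of 10 skeletal muscle markers 8 were higher, with a median of 0.10 and a summed intensity of 1340 in Oma1_KO and 1079 in Oma1_WT. Only 5 of the 10 were above the filter. The largest differences above the filter were those of Myl1, with 449 in Oma1_KO and 307 in Oma1_WT (0.55), and Tnni2, with 121 in Oma1_KO and 87 in Oma1_WT (0.47). Ckm (0.05) and Acta1 (0.01) were nearly level. Of 6 mesothelial markers 5 were lower, with a median of -0.62 and a summed intensity of 1217 in Oma1_KO and 1811 in Oma1_WT. Upk3b had 455 in Oma1_KO and 773 in Oma1_WT (-0.76), and Lrrn4 238 in Oma1_KO and 395 in Oma1_WT (-0.73). No intensity on either array was below 8, so a value above 0 does not show that a marker was expressed.

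Other genes of the pathway were taken from 6 lists with 55 genes, of which 49 were measured and 38 were above the filter. Of the 49, 5 were at least 1.5-fold higher in Oma1_KO and 0 were lower by that much, with a median of -0.05. Without a filter, 229 of all 19938 genes were at least 1.5-fold higher and 280 were lower by that much. Only 2 of those 5, Apoc3 and Fabp1, were above the filter.

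The proteins that act on lipoprotein lipase differed in both directions. Of 13 measured genes, 6 were higher and 7 lower, with a median of -0.04. Gpihbp1, the capillary anchor of lipoprotein lipase, had an intensity of 735 in Oma1_KO and 1008 in Oma1_WT. Its difference of -0.46 was lower than that of Lpl by 0.28 and lay within the range of the capillary markers, from -0.65 to -0.22. The part of capillary cells in the Gpihbp1 difference was not tested. Apoc3, a plasma inhibitor of lipolysis made in liver and intestine, had 543 in Oma1_KO and 252 in Oma1_WT, a difference of 1.10. Apoa5, a liver protein that promotes lipolysis, had 147 in Oma1_KO and 125 in Oma1_WT (0.23). The maturation factor Lmf1, which lipoprotein lipase needs to fold, was nearly level, at 816 in Oma1_KO and 777 in Oma1_WT.

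Binding proteins outside the list of 10 included many that were dim. Of 10 measured, 5 were higher, 4 lower and 1 equal, 5 were above the filter, and the median was 0.04, which became -0.03 after quantile normalisation and -0.01 after loess. Fabp7, the brain form, had 231 in Oma1_KO and 279 in Oma1_WT (-0.27). Dbi, the acyl-CoA binding protein, had 7544 in Oma1_KO and 8627 in Oma1_WT (-0.19). Fabp2, the intestinal form, was at least 1.5-fold higher but far below the filter, at 29 in Oma1_KO and 18 in Oma1_WT. Besides Slc27a5, the last member of its family, Slc27a6, was also below the filter, at 33 in Oma1_KO and 28 in Oma1_WT.

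Acyl-CoA synthetases trap fatty acids in the cell. Of the 4 measured, 2 were lower and 2 higher, beside 9543 lower and 9356 higher of all 19938 genes. Acsbg1 had an intensity of 98 in Oma1_KO and 136 in Oma1_WT, a difference of -0.47. Acsl4, which prefers arachidonic acid, had 475 in Oma1_KO and 581 in Oma1_WT (-0.29). Acsl5 was nearly level, at 678 in Oma1_KO and 642 in Oma1_WT. Acsl6 was below the filter, at 46 in Oma1_KO and 42 in Oma1_WT. Acsl1 and Acsl3 had no single-symbol probe set and were not analysed here.

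Of 12 membrane and endothelial partners of uptake 8 were lower, with a median of -0.07, near the 62.3% lower and the median of -0.06 of all genes above the filter. The caveolar proteins Cav1 and Cav2 had 7589 in Oma1_KO and 8517 in Oma1_WT (-0.17), and 2966 in Oma1_KO and 3313 in Oma1_WT (-0.16). Flt1, the receptor through which Vegfb acts on endothelium, had 720 in Oma1_KO and 869 in Oma1_WT (-0.27). Mfsd2a, a transporter of lysophospholipids, was at least 1.5-fold higher with its mean below the filter, at 86 in Oma1_KO and 51 in Oma1_WT. Of 8 transcriptional regulators 6 were lower, beside the same 62.3%, 0 reached 1.5-fold, and the median was -0.12. Pparg, the main regulator of adipocyte lipid genes, had 3721 in Oma1_KO and 4050 in Oma1_WT (-0.12). Its partner Rxra had 818 in Oma1_KO and 999 in Oma1_WT (-0.29), and the liver X receptor Nr1h3 had 980 in Oma1_KO and 1185 in Oma1_WT (-0.27).

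**Figure D4:**
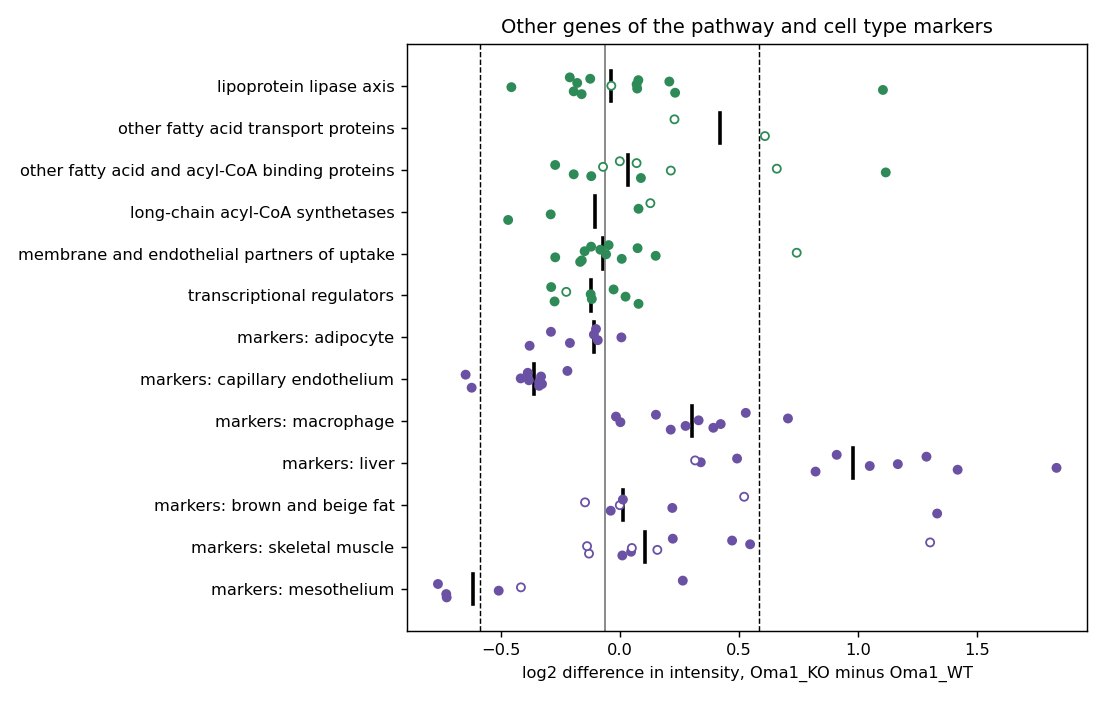
Log2 difference in intensity, Oma1_KO minus Oma1_WT, of each measured gene of the pathway lists (green) and marker lists (purple), open where below the filter, with each list's median (black bar), the median of all genes above the filter (grey line) and 1.5-fold (dashed lines). The pathway lists centre near 0 apart from the pair of dim transport proteins, the capillary markers lie wholly below 0 and the liver markers wholly above it.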

How the data were processed

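For each array the authors deposited a linear intensity for every probe set, rounded to whole numbers. Trizol-extracted RNA was biotin-labelled, per the labels. How probes were corrected, summarised and scaled is not given in the sources used. Intensities ran from 8 to 21365 in Oma1_KO and from 8 to 21216 in Oma1_WT.

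Gene names came from the platform annotation in GEO: 21789 probe sets had 1 symbol, 1621 several and 12102 none, and those with several or none were left out. All 10 genes matched the RefSeq table (GRCm38.p6) by gene identifier. A pseudocount of 1 was added before log2, so differences of dim genes are understated, and probe sets of 1 gene were averaged. No further normalisation was applied. Rounding makes dim values coarse, and no detection call was used.

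The 10 genes and all lists were chosen with earlier results of these data known. Of the 6 pathway lists and 7 marker lists, the text names the genes at least 1.5-fold apart in a pathway list, the 3 (pathway) or 2 (marker) with the largest absolute difference above the filter, Oma1, Alb, Ucp1 and the 3 genes nearest to Slc27a2. Lmf1, Slc27a6, Fga, Apoc1, Angptl8, Ckm, Acta1 and Acsl6 were added after their values were seen. List genes with no single-symbol probe set, such as Apoc2, Lipc, Acsl1, Acsl3, Nr1h2, Cfd and Cpt1b, were not analysed here. Counting was tested on simulated data with changes larger than 1.5-fold and less scatter than the SD between probe sets. That checks the counting code only. Python 3.11.15, numpy 2.4.6, pandas 2.3.3, statsmodels 0.14.6 and matplotlib 3.10.9 were used.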

Additional observations from a re-analysis of the deposited data

How the results depend on the processing

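No paired analysis was possible because there was 1 array per group, and no array could be left out. The alternatives were a pseudocount of 16, quantile normalisation, loess, centring on the median (which changed nothing, the medians being equal), the brightest probe set of a gene, no filter and a filter at the upper quartile of intensity. All 10 genes kept the sign of their difference in the 6 settings that do not change the filter, the reported one included. Not all of these settings were true alternatives. The brightest probe set could change only Fabp3 and Fabp5, the genes of the list with 2 probe sets, and left the others as reported. Slc27a2 stayed at least 1.5-fold higher in all 6, between 0.77 and 0.88, and Slc27a1 lay between -0.46 and -0.42. The median of the 10 genes, at -0.0027, was 0.03 after quantile normalisation and 0.02 with the brightest probe set, so its sign is not settled. With the filter at the upper quartile 7 of the 10 genes were left, and their median was -0.17, beside -0.06 for all genes above that filter. Of the 7, 0 were at least 1.5-fold higher, since Slc27a2 was among those removed. The counts over all genes became 54 higher and 81 lower at the upper quartile, and 229 higher and 280 lower with no filter.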
